A study of Mus musculus with 6 samples.

Results

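The genes described here are 10 genes of MHC class I antigen presentation, chosen by name from the 55401 genes of a read count table. They are the heavy chain genes H2-K1, H2-D1, H2-Q7 and H2-T23, the light chain gene B2m, the peptide transporter genes Tap1 and Tap2, the loading factor gene Tapbp, the trimming peptidase gene Erap1 and the class I regulator gene Nlrc5. All 10 were found in the table, and 9 had enough counts to be tested. To investigate how they responded to macrophage supernatant, mouse T cells were cultured with it and their poly(A) RNA was sequenced. In 3 control cultures the supernatant came from untreated macrophages, and in 3 NFL cultures it came from macrophages activated with NFL, the neurofilament light chain, a structural protein of axons. Per the design text, the T cells came from mouse spleen by selection on beads against CD8a, and the macrophages were grown from CD11b+ spleen monocytes in 50 ng/mL M-CSF over 7 days. NFL, which that text describes as prepared from a freeze-thawed lysate of sciatic nerve, was given to the macrophages at 5 µg/mL for 24 h. The co-culture methods of the study give another NFL dose, and which applies to these libraries is not settled by the sources used here. Filtered supernatant made up 50% of an RPMI medium holding 2% FBS in both groups. No library came from T cells given NFL without macrophages. Any NFL preparation left in the supernatant therefore cannot be told apart from products of the macrophages. The labels used here name no strain, sex, age or genotype and do not say whether the libraries came from separate mice, so the p-values below measure only the spread between these libraries, which may be technical.

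Class I molecules show fragments of proteins made inside a cell to CD8+ T cells, and nearly every nucleated cell carries them, T cells included. Proteasomes and cytosolic peptidases make the peptides, the TAP transporter moves them into the endoplasmic reticulum (ER), aminopeptidases trim them there, and tapasin holds the transporter beside an empty heavy chain until a fitting peptide binds. A classical heavy chain reaches the cell surface stably only with beta-2 microglobulin and a peptide. In lymphocytes the protein NLRC5 acts at heavy chain, B2m and Tap1 promoters and raises their transcription, and interferons raise the same genes.

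Total counts ranged from 15843045 to 24639756 for control and from 16190568 to 17796228 for NFL. At these depths 3 counts, taken as the floor of detection, stood for 0.122 to 0.189 CPM, the unit of counts scaled by library size. With edgeR's quasi-likelihood test, 986 of 14082 tested genes (7.00%) had a Benjamini-Hochberg adjusted p under 0.05, the threshold used throughout, of which 489 (3.47%) were higher and 497 (3.53%) lower with NFL supernatant. With scaling by library size alone the split was 372 higher and 600 lower. The T cell label was borne out in part: the T cell marker Thy1 stood at 1575 to 1709 CPM, Cd3e at 49.1 to 64.6 CPM and Cd247 at 37.8 to 47.1 CPM. Against it, Cd3d (2.32 to 4.82 CPM), Cd3g (6.05 to 8.86 CPM) and Lck (3.67 to 5.90 CPM) were low, and the T cell markers Cd2 and Cd5 had no counts in any library. The CD8 coreceptor genes were low, Cd8a at 3.20 to 4.46 CPM and Cd8b1 at 0.870 to 1.57 CPM, although the cells were selected on CD8a. The CD4 T cell marker Cd4 stood at 23.3 to 27.6 CPM, above both CD8 genes in every library.

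Promoters are shown for the 3 members that rose, H2-K1, B2m and Tapbp, beside those of H2-D1, the other classical heavy chain gene among the members, and Tap1, neither of which passed the test. Each is the 250 bases before the annotated start of transcription, 5′ to 3′ on the gene's strand, from RefSeq on build GRCm38.p6. They lie at chr17:34000348-34000597 on the minus strand for H2-K1, and on the plus strand at chr2:122147437-122147686 for B2m, chr17:33919228-33919477 for Tapbp, chr17:35262844-35263093 for H2-D1 and chr17:34187306-34187555 for Tap1. Capitals mark matches, on either strand, to the NF-κB consensus, to a strict interferon response element and to the box CCAAT. The strict interferon response element was GAAA followed after any 2 bases by GAAA.
H2-K1: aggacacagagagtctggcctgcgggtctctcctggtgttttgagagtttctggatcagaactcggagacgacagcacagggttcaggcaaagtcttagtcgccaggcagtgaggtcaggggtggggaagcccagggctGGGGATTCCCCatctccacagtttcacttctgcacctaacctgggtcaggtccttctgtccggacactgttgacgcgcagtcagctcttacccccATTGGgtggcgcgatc
B2m: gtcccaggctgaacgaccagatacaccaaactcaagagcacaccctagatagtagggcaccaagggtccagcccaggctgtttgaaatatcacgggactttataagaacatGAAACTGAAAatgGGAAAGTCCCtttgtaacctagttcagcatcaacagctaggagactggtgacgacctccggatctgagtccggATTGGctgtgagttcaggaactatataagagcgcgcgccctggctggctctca
Tapbp: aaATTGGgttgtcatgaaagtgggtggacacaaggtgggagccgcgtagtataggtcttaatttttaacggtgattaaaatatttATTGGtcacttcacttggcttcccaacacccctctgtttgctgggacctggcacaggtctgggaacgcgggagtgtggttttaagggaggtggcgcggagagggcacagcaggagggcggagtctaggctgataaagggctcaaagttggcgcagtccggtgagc
H2-D1: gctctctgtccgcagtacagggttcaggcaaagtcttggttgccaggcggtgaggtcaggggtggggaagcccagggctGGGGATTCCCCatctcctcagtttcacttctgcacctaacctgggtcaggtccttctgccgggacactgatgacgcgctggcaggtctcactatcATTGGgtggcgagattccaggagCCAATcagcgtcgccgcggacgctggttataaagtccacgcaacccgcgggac
Tap1: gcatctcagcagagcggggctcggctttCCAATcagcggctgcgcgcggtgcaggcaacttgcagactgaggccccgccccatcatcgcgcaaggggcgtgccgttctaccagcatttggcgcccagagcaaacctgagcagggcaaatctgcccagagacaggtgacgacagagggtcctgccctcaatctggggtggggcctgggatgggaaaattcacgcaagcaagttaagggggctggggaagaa

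The H2-K1 and H2-D1 promoters both held the run GGGGATTCCCC, at bases -111 to -101 from the annotated start in H2-K1 and -171 to -161 in H2-D1. These distances depend on which start is annotated. That run was present in 10 of 32851 RefSeq promoter windows of this length (0.0304%), H2-Q6 among them. Each copy matches the NF-κB consensus in 2 overlapping positions. Aligned without gaps, the H2-K1 and H2-D1 windows were identical at 166 of 190 compared bases (87.4%). They shared a run of 47 bases that holds GGGGATTCCCC. Aligned in the same way, the H2-K1 window was identical at 75% of compared bases to H2-Q6, 63.1% to H2-Q4 and 50.4% to H2-Q7. The values were 34.3% for B2m and 36.0% for Tapbp. Each value is the best over all offsets that left at least 150 bases to compare. Without gaps, 1 inserted or missing base puts the rest of a window out of step. H2-Q7, for example, has GGGGATTCCC where H2-Q6 has GGGGATTCCCC. These percentages therefore do not rank the windows by likeness. RefSeq lists a further start for H2-K1, whose window overlaps the one shown and holds the same run, at bases -125 to -115 from that start. Promoters were matched for 8 of the 10 members, and the windows of Tap2 and Nlrc5 were not among them. Of these 8, the NF-κB consensus was found in 4 (H2-K1, H2-D1, H2-Q7 and B2m), against 4.46% of the 27025 genes with a window. The strict interferon response element was found in 2, B2m and H2-T23, against 3.46% of those genes. Looser forms of it were not searched for, so this count does not say that the other windows lack such an element. CCAAT was found in 7 (37.5% of those genes) and TGACG, the core of the cyclic AMP response element, in 5 (19.8% of those genes). These matches describe letters in the windows, and binding of any factor was not measured.

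With NFL supernatant the RNA of the classical heavy chain H2-K1, of the light chain B2m and of tapasin (Tapbp) rose by 10.03% to 16.9%. The heavy chains H2-D1 and H2-Q7, the transporter, the trimming peptidase and the regulator Nlrc5 did not pass the test. Thus 3 of the 9 tested members passed, all of them higher, where 7.00% of all tested genes passed and 3.47% were called higher. Among the 6312 genes whose mean log2 CPM was 5 or more, as it was for all 9, 6.37% were called higher. The median log2 fold change over the 9 members was 0.06, beside -0.001 over all tested genes, and 7 of the 9 values were positive. Members and the lists below were chosen with earlier results of these data known, so shares set beside those of all genes do not test them as sets.

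**Figure D1:**
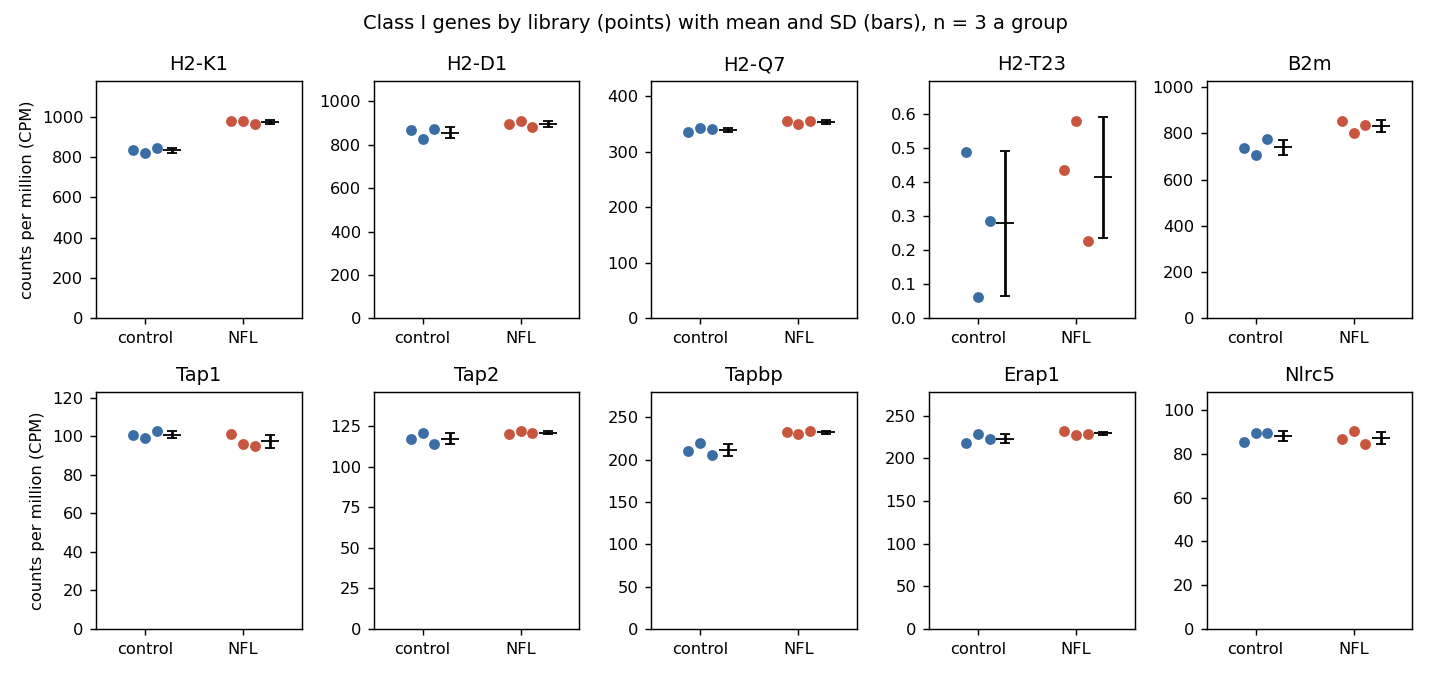
CPM of each member (vertical axis, from 0) in the 3 control and the 3 NFL libraries, with points for libraries and black bars for the mean and SD. H2-K1, B2m and Tapbp sit higher in all NFL libraries, by 10.03% to 16.9%, Nlrc5 and Tap1 lie at like heights in both groups, and H2-T23 is under 1 CPM throughout.

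H2-K1 (ENSMUSG00000061232.16, chromosome 17), the classical K heavy chain, stood at 836, 818 and 846 CPM in the control libraries and at 978, 981 and 963 CPM in the NFL libraries. The groups did not overlap, and the gap between them was larger than the range within either group. The log2 fold change was 0.23 (SE 0.03), an increase of 16.9% (95% interval 12.6% to 21.3%, edgeR adjusted p = 1.1e-08). H2-D1 (ENSMUSG00000073411.12, chromosome 17), the classical D heavy chain, stood at 870, 827 and 873 CPM in control and at 897, 912 and 883 CPM with NFL. All 3 NFL libraries lay above the control libraries, by a narrow margin. The increase was 4.75% (95% interval 0.83% to 8.8%, edgeR adjusted p = 0.14) and did not pass the test.

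H2-Q7 (ENSMUSG00000060550.16, chromosome 17), a nonclassical Qa-2 heavy chain, gave 336, 343 and 340 CPM in control and 356, 350 and 356 CPM with NFL. Again the groups lay apart, but the change of 4.2% (95% interval 0.042% to 8.6%, edgeR adjusted p = 0.25) did not pass. H2-T23, which encodes Qa-1, the heavy chain seen by NKG2 receptors, had 12, 1 and 7 counts in control and 7, 10 and 4 counts with NFL. With 0.279 ± 0.213 CPM in control and 0.414 ± 0.178 CPM with NFL (SD, n = 3 each), its levels overlapped and lay near the floor, and it was left out of the test. In all, 5 of the 9 tested members had every NFL library above every control library, a pattern seen in 11.5% of all tested genes.

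Of 39 other heavy chain genes listed, 28 were in the table and 11 could be tested, and 3 of these rose while none fell, with a median log2 fold change of -0.02. H2-Q4 stood at 28.2, 31.3 and 30.3 CPM in control and at 41.7, 41.0 and 40.8 CPM with NFL (log2 fold change 0.46, SE 0.07, edgeR adjusted p = 1.3e-06). H2-Q6 went from 193, 178 and 192 CPM to 229, 228 and 222 CPM (0.27, SE 0.03, edgeR adjusted p = 9.3e-08), and H2-Q5, annotated as a polymorphic pseudogene, from 54.0, 53.5 and 57.8 CPM to 69.2, 65.0 and 67.2 CPM (0.28, SE 0.05, edgeR adjusted p = 1.7e-04). All 3 are Qa genes of the Q region and lay apart between the groups, whereas H2-Q10 of the same region had a log2 fold change of -0.02 (SE 0.04) and H2-T22 of the T region one of -0.09 (SE 0.06), neither past the threshold.

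**Figure D2:**
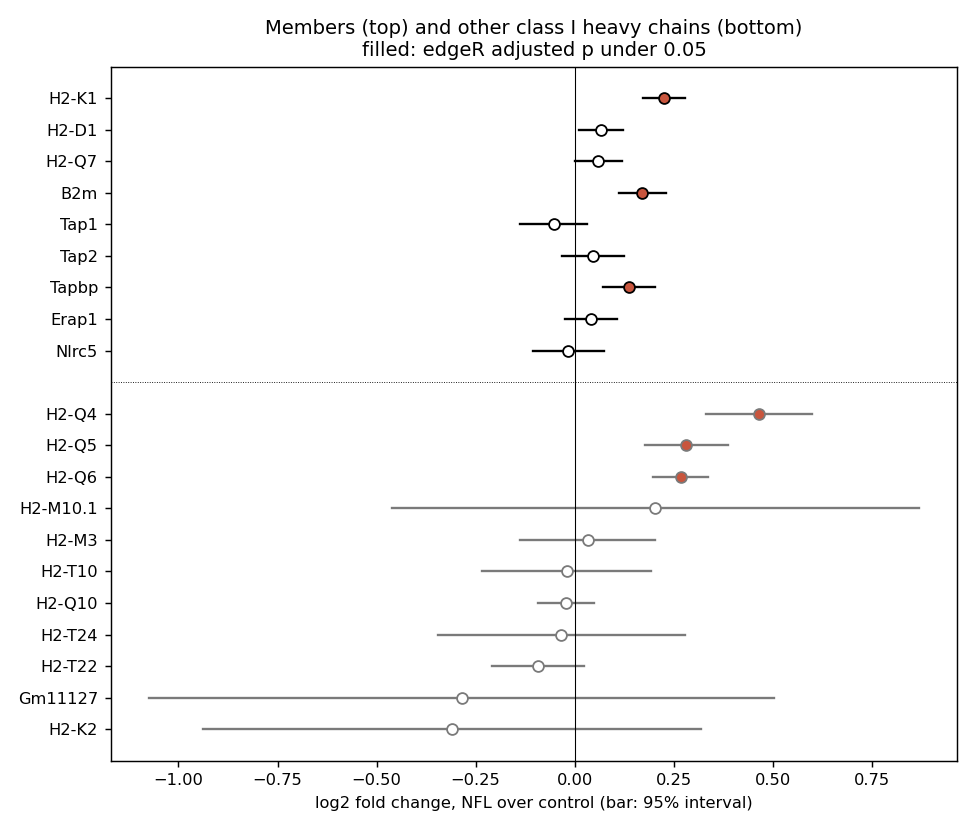
Log2 fold change of NFL over control (horizontal axis) with its 95% interval for the 9 tested members (top) and the 11 other tested heavy chain genes (bottom), filled where the edgeR adjusted p is under 0.05. H2-K1 at 0.23, B2m at 0.17 and Tapbp at 0.14 are the filled members, H2-Q4 reaches 0.46, and the widest intervals belong to genes of low count.

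Heavy chain genes resemble each other, and how reads that match several of them were counted is not given in the sources used here. In GENCODE M21 transcripts, 9.63% of the 50-base windows of H2-K1, 12.8% of those of H2-D1 and 26.4% of those of H2-Q7 also occurred in other genes, and 36.5% of H2-Q5 and 32.0% of H2-Q6. At 100 bases the shares were 0.957% for H2-K1, 3.59% for H2-D1 and 11.98% for H2-Q7. The counts of the Q genes are therefore uncertain as counts of single genes. Summed over 32 heavy chain genes, the members included, the libraries held 2639, 2545 and 2659 CPM in control and 2880, 2887 and 2835 CPM with NFL. The log2 fold change of the sum was 0.13 (SE 0.02, edgeR adjusted p = 1.2e-04), and it does not depend on how the counted reads were divided among these genes.

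B2m (ENSMUSG00000060802.8, chromosome 2), the light chain that every class I heavy chain shares, stood at 736, 709 and 775 CPM in control and at 856, 804 and 838 CPM with NFL. Its lowest NFL library was above its highest control library. The log2 fold change was 0.17 (SE 0.03), an increase of 12.5% (95% interval 8.0% to 17.2%, edgeR adjusted p = 5.1e-05). None of its 50-base transcript windows occurred in another gene.

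Ratios of counts within a library do not depend on how libraries are scaled. The log2 ratio of H2-K1 to H2-D1 was -0.06, -0.01 and -0.05 in control and 0.12, 0.11 and 0.12 with NFL. H2-D1 thus had the higher raw count in every control library and H2-K1 in every NFL library. Raw counts are not scaled for exon length, which is 2938 bases for H2-K1 and 2579 for H2-D1. Per kilobase of exon H2-D1 stayed above H2-K1, at 332 against 284 CPM in control and 348 against 332 CPM with NFL. The log2 ratios of the 2 groups lay 0.16 apart. The exact two-sided permutation test of 3 against 3 libraries gave p = 0.1, the smallest it can give (adjusted p = 0.4 over 8 ratios to H2-D1), so a p under 0.05 could not be reached. This ratio was added after the values were seen. Relative to B2m, H2-K1 moved by 0.05 (exact permutation p = 0.3) and H2-D1 by -0.10 (p = 0.2 by the same exact test). The ratios of Tap1, Nlrc5, Erap1 and H2-Q7 to B2m were lower in all NFL libraries than in all control libraries, by -0.22, -0.19, -0.13 and -0.11 on the log2 scale (exact permutation p = 0.1 each, adjusted p = 0.2 over 8 ratios). B2m itself rose by 0.17, and with Actb as the reference the differences were 0.020 for Erap1 and 0.040 for H2-Q7, the opposite direction, and -0.071 for Tap1 and -0.037 for Nlrc5, with overlap between the groups for all 4.

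**Figure D3:**
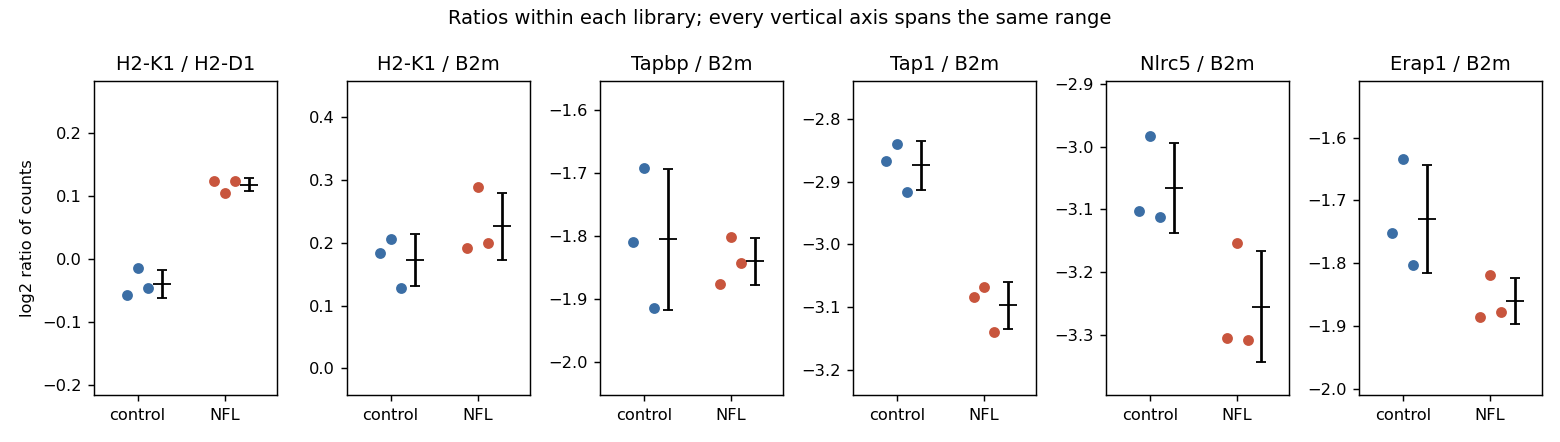
Log2 ratio of the counts of 2 genes in each library (vertical axis, the same span in every panel), with points for libraries and black bars for the mean and SD of 3. The ratio of H2-K1 to H2-D1, in counts not scaled for exon length, lies higher in all NFL libraries than in all control libraries. The ratios of Tap1, Nlrc5 and Erap1 to B2m lie lower with NFL.

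Of the members that carry, load and trim peptide, 1 passed the test. Tapbp (chromosome 17), which encodes tapasin, the bridge between transporter and heavy chain, stood at 210, 219 and 205 CPM in control and at 233, 230 and 234 CPM with NFL. The groups did not overlap, and the increase was 10.03% (95% interval 5.1% to 15.2%; log2 fold change 0.14, SE 0.03, edgeR adjusted p = 0.0044). Tapbp shares 149 exonic bases with Zbtb22 on the same strand, a gene with 450 to 700 counts per library.

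Tap1 and Tap2 (both on chromosome 17) encode the 2 chains of the peptide transporter. Tap1 gave 101, 99.0 and 103 CPM in control and 101, 95.9 and 95.1 CPM with NFL, and Tap2 gave 117, 121 and 114 CPM in control and 120, 122 and 121 CPM with NFL. The libraries of the groups overlapped for both genes. The change was -3.6% for Tap1 (95% interval -9.1% to 2.2%, edgeR adjusted p = 0.56) and 3.3% for Tap2 (95% interval -2.2% to 9.1%, edgeR adjusted p = 0.59), so increases as large as that of H2-K1 lie outside both intervals. Exons of Tap1 overlap those of Psmb9 by 212 bases on the opposite strand, and the use of strand in counting is not given in the sources used here.

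Erap1 (chromosome 13), the ER aminopeptidase that trims peptides to fit the class I groove, stood at 218, 228 and 222 CPM in control and at 232, 228 and 228 CPM with NFL. The groups overlapped, and the change of 2.9% (95% interval -1.6% to 7.6%, edgeR adjusted p = 0.55) did not pass. Its exons overlap 834 bases of Cast on the opposite strand. Nlrc5 (chromosome 8), the transactivator of class I genes, gave 85.6, 89.6 and 89.5 CPM in control and 86.7, 90.3 and 84.7 CPM with NFL. Its groups overlapped throughout, with a change of -1.1% (95% interval -7.1% to 5.3%, edgeR adjusted p = 0.91).

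Compared per kilobase of exon, the levels spanned a wide range in the control libraries. B2m was highest at 860 ± 38.4 CPM per kilobase (SD, n = 3), followed by H2-D1 at 332 ± 10.09 and H2-K1 at 284 ± 4.8. H2-Q7 at 79.6, Tapbp at 58.3, Tap2 at 31.0, Erap1 at 30.6, Tap1 at 18.4 and Nlrc5 at 10.39 CPM per kilobase came next, and H2-T23 was last at 0.0966. Only Tap2 and Erap1 were neighbours whose libraries overlapped, in control and with NFL alike, and the order was the same in both groups. The annotated length of H2-D1 comes from a version of the gene that differs from the one counted.

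The counts of the lists around the members stand against the 7.00% of all tested genes that passed. Of 13 genes for loading and folding in the ER, 1 rose, the lectin chaperone calreticulin (Calr), from 1140, 1081 and 1110 CPM to 1177, 1200 and 1213 CPM (log2 fold change 0.11, SE 0.03, edgeR adjusted p = 0.0055), and without NFL replicate 3 its adjusted p was 0.077. Its partners Canx and Pdia3 had log2 fold changes of 0.001 and -0.001. Of 9 genes of the immunoproteasome and its activator, whose catalytic subunits favour peptides with ends that suit class I, none passed the edgeR test. Psme2 (log2 fold change 0.11, edgeR adjusted p = 0.15) and Psmf1 (0.08, edgeR adjusted p = 0.51) came nearest, and the unadjusted edgeR test had 1 gene, Psme2, under 0.05. Psmb8, the inducible catalytic subunit next to Tap1 in the genome, had a log2 fold change of -0.004 (SE 0.04). Of 12 peptidases, the leucine aminopeptidase gene Lap3 had a log2 fold change of 0.12 and rose (edgeR adjusted p = 0.012), and Lnpep, which trims peptides in endosomes, fell by 0.13 (edgeR adjusted p = 0.0052).

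**Figure D4:**
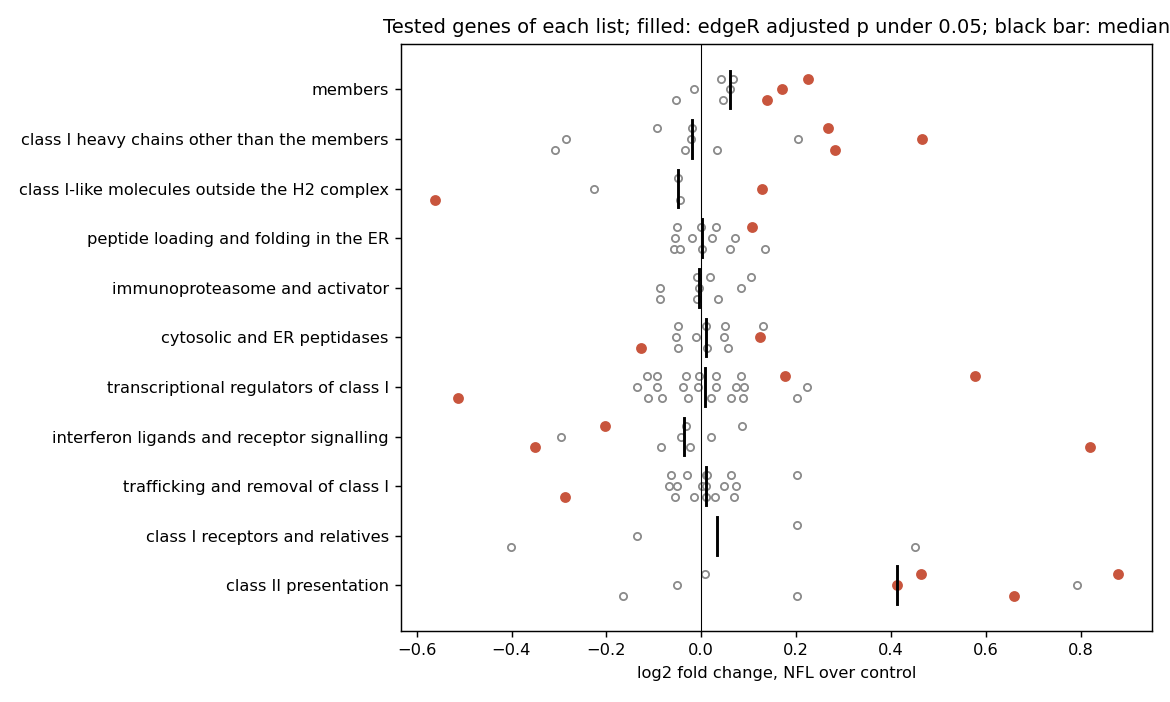
Log2 fold change of NFL over control (horizontal axis) for each tested gene of the members and of 10 lists around class I, filled where the edgeR adjusted p is under 0.05, with a black bar at each list's median. The class II list has a median of 0.41, and every other list has a median within 0.06 of 0.

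Among 24 transcriptional regulators with ties to class I, 2 rose and 1 fell, with a median log2 fold change of 0.01. Ciita, the regulator of class II genes and a relative of Nlrc5, stood at 17.8, 21.6 and 22.02 CPM in control and at 29.4, 30.2 and 31.7 CPM with NFL (log2 fold change 0.58, SE 0.08, edgeR adjusted p = 8.5e-07). Creb1, whose product binds the cyclic AMP response element, rose by 0.18 (edgeR adjusted p = 1.2e-04). The interferon regulatory factor gene Irf7 fell by 0.51 (edgeR adjusted p = 0.015), a call that was lost without control replicate 3 (adjusted p = 0.073), NFL replicate 1 (0.068) or NFL replicate 3 (0.089).

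Of 10 tested genes for interferon ligands and receptor signalling, 1 rose and 2 fell. Low counts left Ifnb1 (0.523 CPM at most) and the receptor chain genes Ifnar2 and Ifngr2 out of the test. Ifnar2 had no counts in any library, and Ifngr2 reached 0.205 CPM at most, near the floor. Ifng, the gene of interferon gamma, went from 10.8, 8.66 and 12.5 CPM to 19.9, 18.7 and 18.6 CPM (log2 fold change 0.82, SE 0.11, edgeR adjusted p = 1.2e-07). The groups lay well apart. Ifngr1, a chain of its receptor, fell from 116, 117 and 120 CPM to 92.8, 93.8 and 91.0 CPM (-0.35, SE 0.04, edgeR adjusted p = 8.4e-09), and Ifnar1, a chain of the type I interferon receptor, fell by 0.20 (edgeR adjusted p = 0.0069), which was lost without control replicate 1 (adjusted p = 0.051) or NFL replicate 3 (0.10).

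Of 5 tested class I-like genes, Fcgrt, the neonatal Fc receptor chain that also pairs with B2m, fell from 27.2, 31.0 and 30.1 CPM to 20.5, 20.3 and 18.9 CPM (log2 fold change -0.56, SE 0.08, edgeR adjusted p = 1.0e-06), while Ulbp1, a ligand of the receptor NKG2D, rose by 0.13 (edgeR adjusted p = 0.0034). Of 18 tested genes for trafficking and removal, Wdfy4, needed for cross-presentation in dendritic cells, fell by 0.29 (edgeR adjusted p = 0.049) and passed under 5 of 15 alternative settings. Of 4 tested genes for class I receptors and their relatives, none passed by edgeR, and Lilrb4a, whose mouse product is not an established class I receptor (log2 fold change 0.45, edgeR adjusted p = 0.087) and Cd8b1 (-0.40, edgeR adjusted p = 0.60) came nearest, with 1 of the 4, Lilrb4a, under 0.05 before adjustment.

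Of 9 tested class II presentation genes, 4 rose and none fell, with a median log2 fold change of 0.41. Cd74, the invariant chain, went from 88.4, 86.0 and 83.9 CPM to 137, 136 and 135 CPM (log2 fold change 0.66, SE 0.04, edgeR adjusted p = 2.1e-18), and H2-Aa rose by 0.88 (edgeR adjusted p = 9.6e-18). H2-Eb1 rose by 0.46 (edgeR adjusted p = 1.6e-06) and H2-Ab1 by 0.41 (edgeR adjusted p = 7.3e-06).

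The genes whose levels followed H2-K1 most closely over the 6 libraries, out of 6311 whose mean log2 CPM was 5 or more, were Lta, Bcl10, Ddx39b, Yrdc and Slc39a4, with Pearson r of log2 CPM from 0.993 to 0.997. Lta, which encodes lymphotoxin alpha, led with 540, 504 and 551 CPM in control and 880, 841 and 838 CPM with NFL (log2 fold change 0.68, SE 0.03, edgeR adjusted p = 2.9e-24). Bcl10 (log2 fold change 0.18, edgeR adjusted p = 0.066) and Ddx39b (0.08, edgeR adjusted p = 0.11) did not pass the threshold. The points share their libraries and the difference between the 2 groups, so the r values describe a shared step between groups.

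Class I and class II genes are also expressed by other spleen cells, and in bulk RNA fewer cells of a type cannot be told apart from less RNA per cell. Of 12 macrophage markers, C1qa, C1qb, C1qc, Cd14, Itgam and Mrc1 had no counts in any library, and Lyz2 reached 0.116 CPM at most. The summed level, nearly all Cd68, was 25.3 to 28.4 CPM in control and 20.3 to 24.4 CPM with NFL. Cd68 fell by 0.26 in log2 terms (edgeR adjusted p = 0.049) and passed under 8 of 15 alternative settings. Its call was lost without control replicate 1 (edgeR adjusted p 0.25), NFL replicate 2 (0.37) or NFL replicate 3 (0.11). It was also lost with no filter, with thinned counts, with DESeq2 and with limma-voom. Of 9 B cell markers, Ms4a1, Ighm and Blk had no counts, and the sum was 16.6 to 17.8 CPM in control and 17.9 to 19.7 CPM with NFL. It was made up mainly of Pax5 at 8.57 to 10.61 CPM and Cr2, at 4.55, 3.33 and 5.73 CPM in control and 6.27, 6.16 and 5.61 CPM with NFL (log2 fold change 0.38, edgeR adjusted p = 0.20), beside Cd79a and Cd79b, and none of the 4 tested passed by edgeR, with Cr2 under 0.05 before adjustment. Of 7 dendritic cell markers, Flt3 and Siglech had no counts, and the sum was 32.5 to 37.4 CPM in control and 43.2 to 44.4 CPM with NFL, most of it Batf3, which rose by 0.33 (edgeR adjusted p = 4.9e-04) and which activated T cells also express. Of 5 natural killer cell markers, Ncr1 and Klra8 had no counts, and the sum was 1180 to 1236 CPM in control and 1150 to 1177 CPM with NFL, most of it Nkg7 and Eomes, which cytotoxic T cells also express. Klrb1c, a further marker of that list, fell by 0.51 (edgeR adjusted p = 2.4e-06). Of 8 T cell markers 6 were tested, 5 with a negative log2 fold change and 1 with a positive one (median -0.19). Cd3e fell by 0.28 (edgeR adjusted p = 5.7e-04). Cd247 (-0.16, edgeR adjusted p = 0.12) and Lck (-0.38, edgeR adjusted p = 0.22) were under 0.05 only before adjustment. Of 6 erythroid markers, 4 had no counts. The part of other cells in the class I differences was not tested.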

How the data were processed

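Poly(A)-selected RNA of 6 libraries of mouse T cells was sequenced on an Illumina instrument, and the authors deposited raw read counts per gene with no normalization or pooling. For the aligner, the counter and strandedness, nothing is given in the sources used here. The submitters' processing notes name GRCm39, R 4.2.1 and limma 3.54.2. Of 55401 identifiers, 54349 were identical to GENCODE M21 (GRCm38), which served for exon lengths, overlaps and shared transcript windows only, and 55141 had a symbol. Columns were assigned by group letter and number, and groups come from the sample titles. Genes were kept with filterByExpr (minimum count 10, minimum total 15), scaled by TMM (factors 0.994 to 1.01) and tested with edgeR 4.0.16 in R 4.3.3 on all 14082 genes, at a Benjamini-Hochberg adjusted p of 0.05. CPM values were computed on TMM-scaled library totals. The script was tested on simulated data. Depth sets the precision of low genes: 3 counts are 0.122 to 0.189 CPM, for counting error only. Replicates within a group differed by more than sampling noise (chi-square per degree of freedom 1.88 to 3.42; 4.81 to 5.31 between groups). Deviations from the group mean correlated at r = 0.007 to 0.015 between same-numbered libraries of the 2 groups. Between libraries of unlike number r was -0.016 to 0.003. All of these values are small, and whether equal numbers share a mouse or day is not given in the sources used here. Members and lists were chosen with earlier results of these data known. All members are named, then up to 4 genes past the threshold per list or, where none passed, 1 or 2 with the smallest p, and the 5 genes most like the member that changed most; other genes named, such as Canx, Pdia3, Psmb8, H2-Q10 and H2-T22, were chosen after their values were seen. Ratios were compared with exact permutation tests (scipy 1.17.1). Alternatives were other scalings and filters, a replicate block, DESeq2 1.42.0, limma-voom 3.58.1, thinned counts, each library left out, summed heavy chains and other ratio references. Promoter windows were searched on both strands.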

Additional observations from a re-analysis of the deposited data

How the results depend on the processing

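H2-K1, B2m and Tapbp passed the threshold under every alternative run, with the largest adjusted p 3.1e-06, 0.0032 and 0.043, while H2-D1 (adjusted p 0.089 to 0.41), H2-Q7 (0.21 to 0.48), Tap1, Tap2, Erap1 and Nlrc5 passed under none. The number of members past the threshold was 3 throughout. With the replicate number as a block, 1049 genes passed, 3 members among them, and among the members, the list and marker genes that passed and the 5 genes most like H2-K1, the block ended 1 call, that of Wdfy4 (adjusted p 0.051), and made none. Leaving out 1 library gave 508 to 966 genes past the threshold, 250 to 514 higher and 258 to 452 lower. The lowest totals came without NFL replicate 3 (508) and without NFL replicate 2 (616), and the cause was not tested. The log2 fold change of Nlrc5 ranged from -0.039 to 0.0058 with a library left out, positive without NFL replicate 3. In place of B2m, Actb as the reference turned the ratios positive for H2-D1 (0.048), H2-Q7 (0.040), Tap2 (0.025), Tapbp (0.117) and Erap1 (0.020), and H2-D1, a reference added after seeing the data, turned that of Tapbp (0.068). The ratio of Tapbp to B2m was -0.090 to 0.022 with a library left out. Lap3 lost its call without control replicate 1 (adjusted p 0.055) or NFL replicate 3 (0.12) and Lnpep without NFL replicate 2 (0.065). Depth limits H2-T23, which has 1 to 12 counts per library.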
